A study of Mus musculus with 4514 samples.

Results

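Nuclear RNA was set against whole-cell RNA in hepatocytes of newborn mice. The material was single nuclei sorted as 2N, in sets of 75 and 32 that are described below, and single cells, in sets of 39 and 77, all labelled P0. Together they make 4.94% of the 4514 samples of the study. They were chosen by their labels alone: age P0, and either a 2N nucleus or an unsorted cell. All carried the genotype Alb-Cre; Rosa-tdTomato, in which the albumin promoter drives Cre and Cre switches on a red fluorescent reporter, so the reporter marks cells in which that promoter has been active. No treatment was given. The cells are labelled as hepatocytes of the liver and carry no ploidy label. The nuclei came from hepatocytes collected by flow sorting, which were broken in a homogeniser in a buffer with 0.1% Triton X-100, spun, stained for DNA with DAPI and sorted 1 by 1. Both kinds of sample went through mSTRT-seq, a well-based single-cell method, with 4 + 16 amplification cycles for the nuclei. Nuclei and cells are separate samples, and no label names an animal, so each kind was summed into 1 pool. A further 12 P0 nuclei were sorted as 4N. The same genotype was sampled as 2N nuclei and unsorted cells at P9, P18 and P60, with 58 to 340 samples in each pool.

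A nucleus holds RNA that is still being transcribed and spliced, together with finished transcripts that have not yet left. Introns are removed there and degraded, while most finished mRNAs are exported and spend their life in the cytoplasm. Some long noncoding RNAs act inside the nucleus and are kept there, among them Malat1 and Neat1. Some mRNAs, many of them for splicing factors, are also held back with an intron that has not been removed, and a few liver mRNAs are known to be held in the nucleus and released in bursts. Hepatocytes fill the blood with albumin, apolipoproteins and clotting factors, so their cytoplasm is rich in long-lived mRNAs that are translated on the endoplasmic reticulum. The comparison asks which transcripts of the newborn hepatocyte lie on the nuclear side and which on the cytoplasmic side.

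The nuclei pool held 9071799 counts and the cells pool 23254585 counts, without the ERCC spike-in RNAs. A nucleus had between 7995 and 275734 counts, with a median of 71051, and a median of 3211 genes with a count. A cell had between 47340 and 420155 counts, with a median of 193051.5, and a median of 6118 genes. The spike-in share split both kinds of sample. In 75 nuclei it was 5.90 to 40.5% of counts and in 32 nuclei it was at most 0.031%, while 39 cells had 2.18 to 8.80% and 77 cells 0.259 to 1.11%. These sets stand in no label. The sets were compared over the ranked genes named here with at least 5 CPM, some of them chosen after their values were seen. Of these, 52% were over 1.5 times apart between the sets of nuclei and 42.8% between the sets of cells. The share over all ranked genes was not computed. The set values are printed for some of the named genes, and the part of the sets in the other values was not tested.

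The hepatocyte label was checked against Alb, Afp, Ttr, Apoa1 and Hnf4a. The first 4 had counts in every nucleus and every cell, and Hnf4a, a nuclear receptor that sets hepatocyte identity, in 94 of the nuclei and 98.3% of the cells. Markers of other liver cells were low. Erythroid genes summed to 639.5 CPM (counts scaled to a common total, as is usual) in nuclei and 1016 CPM in cells, with 4 of 15 genes at 0 in nuclei and 3 in cells. Their sum was 51.4 CPM in nuclei with spike-in and 1630 CPM in those without, and 153.5 and 1583 CPM in cells with more and with less. A single cell reached 73667 CPM. Macrophage genes summed to 19.1 and 53.7 CPM (2 of 13 at 0 in nuclei and 0 in cells), endothelial genes to 53.3 and 7.498 CPM (3 and 4 of 10 at 0), and cholangiocyte genes to 76.02 and 65.3 CPM (3 and 4 of 8 at 0). Stellate genes summed to 209.7 and 4.05 CPM (3 of 9 at 0 in each), nearly all of it Reln, at 208.2 CPM in nuclei and 1.64 CPM in cells. Lymphocyte and neutrophil genes summed to 88.5 and 58.9 CPM (2 of 11 at 0 in each). The part of these cells in the results below was not tested.

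Each gene was placed by the log2 of its nuclear to cell ratio, taken from the CPM of the 2 pools with 0.5 added to each count. A positive value means a higher share of the nuclear counts than of the cell counts, and says nothing of amounts per nucleus or per cell. With 1 pool a group there is no test at P0, and the 95% intervals printed are exact Poisson intervals of the pooled counts, which cover counting error only. Genes with a mean of at least 5 CPM over the 2 pools were ranked, 9302 in all. Their median log2 ratio was 1.27, and the middle 50% lay between -0.69 and 3.13. A ratio of at least 4-fold, used here as the call, was reached on the nuclear side by 3711 genes (39.9%) and on the cell side by 1100 genes (11.8%). The last genes inside and the first outside were Snd1 at 2.0003 and Sorbs3 at 1.9994 on the nuclear side, and Pih1d1 at -2.0039 and Hp at -1.9993 on the cell side. At the CPM floor, Styxl1 stood at 5.00 CPM and Neil1 at 4.999 CPM. The zero point is a choice of scale. TMM, which scales the pools on the bulk of the genes, moved every log2 ratio by -1.24, so that a value between 0 and 1.24 turns its direction under it, and the nuclear share of the 4-fold genes went from 77.1% to 45.1%.

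**Figure D1:**
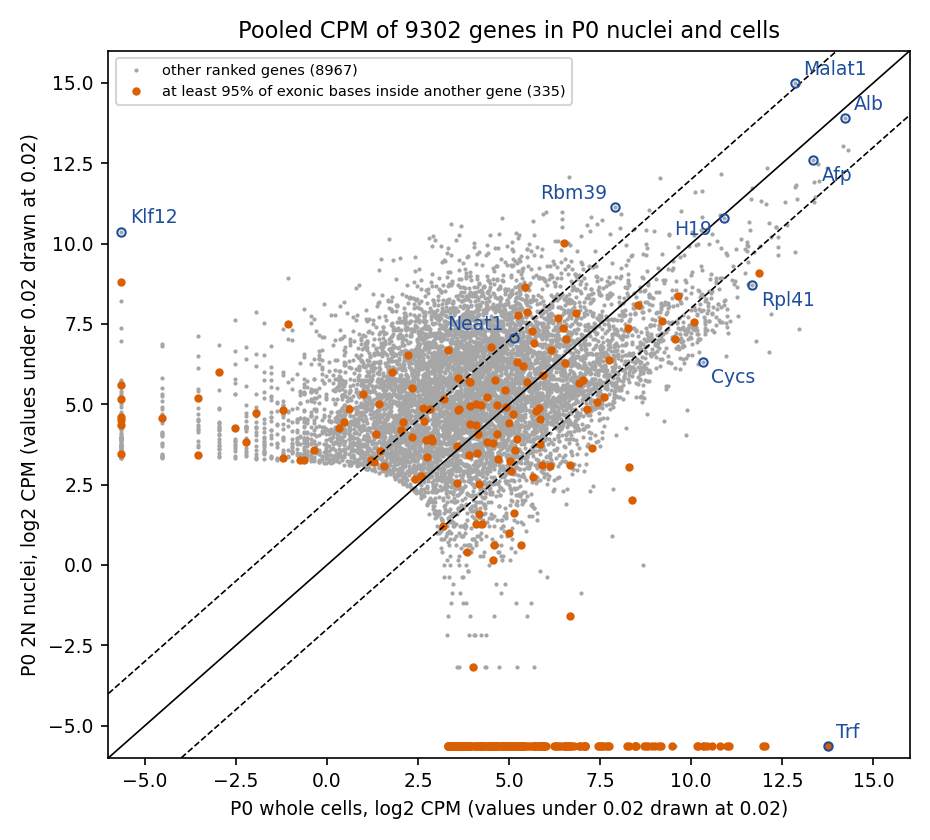
Log2 CPM of 9302 genes in the P0 cells pool (x axis) and the P0 2N nuclei pool (y axis), with equality as a solid line and 4-fold as dashed lines. Orange points are the 3.6% of genes with at least 95% of their exonic bases inside another gene; many of them form the row at the bottom, where the nuclei pool had no count, with Trf at its right end.

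Genes at 0 in 1 pool need to be read apart. Of the ranked genes, 2.76% had no count in the P0 nuclei, and 89.1% of these had none in any of the nuclei pools examined. They took 5.31% of the counts of the P0 cells. Of those that matched 1 annotated gene, 86.1% had at least 95% of their exonic bases inside another annotated gene, against 1.52% of the other 8617 ranked genes. On the other side, 97 ranked genes had no count in the P0 cells, 28 of them none in any of the cell pools, and these 97 took 0.423% of the nuclear counts. Which reads were counted for overlapping genes is not given for either kind of sample, so the values of such genes are uncertain. For this reason a second reading was kept to 6227 genes clear of others, with under 5% of their exonic bases inside another gene. Of these, 2572 (41.3%) stood at least 4-fold higher in nuclei and 543 (8.72%) at least 4-fold higher in cells, with a median log2 ratio of 1.37.

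Among the clear genes the ratio went with the length of the introns. In 8 bins of about equal size, from genes with less than 3366 bases outside exons to genes with more than 103387, the median log2 ratio went through -1.41, -0.44, 0.43, 0.84, 1.51, 2.17 and 3.24 to 4.21. In the lowest bin 7.96% of the genes were at least 4-fold higher in nuclei and 35.9% in cells. In the highest bin these shares were 90% and 0.385%. Spearman's rho between the log2 ratio and the intron bases was 0.67 across the 6227 genes, and 0.59 with the exon bases, given as a description since all genes share the same pools. The same order of bins was seen at the other ages, with medians from -2.46 to 4.05 at P9, -1.90 to 3.90 at P18 and -1.68 to 3.76 at P60. The share of reads that fell in introns is not known from gene counts. Values relative to the median of the gene's own intron-length bin are therefore given beside the lists below. List medians were the same with genes at 0 in a pool set at their bound.

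**Figure D2:**
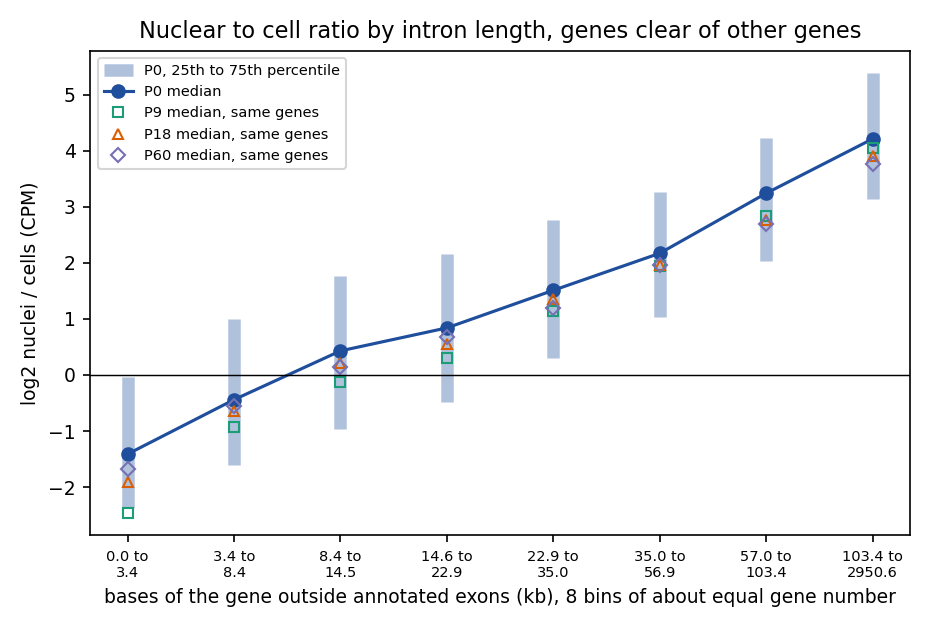
Log2 nuclear to cell ratio of 6227 clear genes in 8 bins of intron length in kilobases (x axis), with the P0 median as a line and the 25th to 75th percentile as bars; open symbols are medians of the same genes at P9, P18 and P60. The P0 medians run from -1.41 in the first bin to 4.21 in the last.

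Malat1, a long noncoding RNA of nuclear speckles, was the most clearly nuclear of the 3 marker genes. Single nuclei held 4819 to 87122 CPM with a median of 36309 CPM, and single cells 247.6 to 17623 CPM with a median of 7526 CPM. The ranges overlap, but 93.5% of the nuclei lay above every cell. Pooled, Malat1 stood at 32375 and 7386 CPM, a log2 ratio of 2.13 (95% interval 2.12 to 2.14). It remained higher in nuclei under TMM, at 0.89. The gene (GRCm38 chr19:5795690-5802672, minus strand) has no base outside its annotated exons. Malat1 is not among the clear genes, since part of its exonic bases lie inside another annotated gene, so its value is uncertain. Neat1, the scaffold of paraspeckles, is its neighbour (chr19:5824708-5845478, minus strand) and also has no base outside exons. It had counts in 70 of the nuclei and 96 of the cells, with medians of 18.3 CPM (0 to 899.9) in nuclei and 24.8 CPM (0 to 271.02) in cells. The median was lower in nuclei, while 27.1% of the nuclei lay above every cell, and the pools stood at 133.4 and 35.1 CPM, a log2 ratio of 1.93 (interval 1.80 to 2.06).

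Both transcripts hold the same kind of element at or near the annotated 3′ end. In it, 2 U-rich motifs and an A-rich tract fold into a triple helix that protects the RNA. The stretches are printed because Malat1 and Neat1 are the nuclear RNAs whose stability this element is best known for. They are read from the longest GENCODE M21 transcript of each gene on GRCm38, 5′ to 3′ on the transcript strand with T for U. Capitals mark the motifs TTTCTTTT, TTTGCTTTT and AAAGCAAAA in that order.
Malat1: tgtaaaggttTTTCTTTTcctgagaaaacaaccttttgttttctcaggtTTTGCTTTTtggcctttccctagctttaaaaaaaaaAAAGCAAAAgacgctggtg
Neat1: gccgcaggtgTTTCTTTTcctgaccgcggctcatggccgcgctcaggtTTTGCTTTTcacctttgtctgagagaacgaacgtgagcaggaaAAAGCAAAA

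The Malat1 stretch is chr19:5795972-5796075 (minus strand) and begins 386 bases before the annotated 3′ end. The Neat1 stretch is chr19:5824708-5824807 (minus strand) and is the last 100 bases of the transcript. The motifs were searched on the transcript strand only, in the last 500 bases of the longest transcript of 40384 genes, and the reverse complement of AAAGCAAAA overlaps TTTGCTTTT in all but 1 base. TTTCTTTT was found in 6.71% of these windows, TTTGCTTTT in 1.2% and AAAGCAAAA in 1.02%. All 3 in this order were found in 2 of the 40384 windows (0.00495%), those of Malat1 and Neat1, and these were also the only 2 among 8795 ranked genes. The motifs searched were the exact ones that these 2 stretches share. Their own match was therefore fixed in advance and is no test. The windows of Meg3 and H19 held none of the motifs.

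Of 14 ranked long noncoding RNAs known from the nucleus, 11 were at least 4-fold higher in nuclei, against 39.9% of all ranked genes, and 1 in cells. Their median log2 ratio was 3.79, against 1.27 for all ranked genes, and the 5 clear members had a median 3.41 above their intron-length bins. Meg3, an imprinted RNA of the Dlk1 locus, had 0 to 4002 CPM in nuclei (median 975.9) and 0 to 499.97 CPM in cells (median 59.6). Of the nuclei, 73.8% lay above every cell. Its pools stood at 1077 and 81.3 CPM, a log2 ratio of 3.73 (interval 3.66 to 3.80). Rian and Mirg, from the same imprinted cluster, had ratios of 4.09 and 4.28. Airn, an antisense RNA of the imprinted Igf2r locus, stood at 298.6 and 3.36 CPM, with counts in 68 nuclei and 18 cells. Its log2 ratio was 6.46 (interval 6.15 to 6.82). Its nuclear level was 160.4 CPM with and 531.1 CPM without spike-in. Airn is not among the clear genes, since part of its exonic bases lie inside another annotated gene, so its value is uncertain. Firre stood at 140.3 and 1.38 CPM (6.65) and Pvt1, the neighbour of Myc, at 218.2 and 1.77 CPM (6.93). The exception was Kcnq1ot1, an antisense RNA of the imprinted Kcnq1 gene, at 0 and 52.9 CPM, and its value is uncertain because it lies inside that gene. Xist, Tsix and Miat had no count in either pool.

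H19 behaved differently from Meg3. It is an imprinted noncoding RNA of fetal liver, and had 0 to 9221 CPM in nuclei (median 1037) and 691.6 to 11629 CPM in cells (median 1531). The ranges overlap, with 33.6% of the nuclei below every cell, and the pools stood at 1778 and 1917 CPM, a log2 ratio of -0.11 (interval -0.14 to -0.08). Its nuclear level differed between the spike-in sets, at 2455 CPM with and 636.7 CPM without. The direction of its ratio turned with the set, to 0.36 with nuclei with spike-in and 0.26 with cells with less spike-in. The 9 ranked RNAs of the list of cytoplasmic and snoRNA-host noncoding RNAs, to which H19 belongs, had a median of 0.66 (-0.58 under TMM). Among them, 1 gene (11.1%) was at least 4-fold higher in nuclei and 2 (22.2%) in cells, against 39.9% and 11.8% of all ranked genes. Gas5 stood at 293.2 and 386.2 CPM (-0.40), Snhg6 at 21.9 and 101.3 CPM (-2.21) and Snhg7 at 160.2 and 4.09 CPM (5.28). These host genes overlap the small nucleolar RNAs they carry, so their counts are uncertain.

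**Figure D3:**
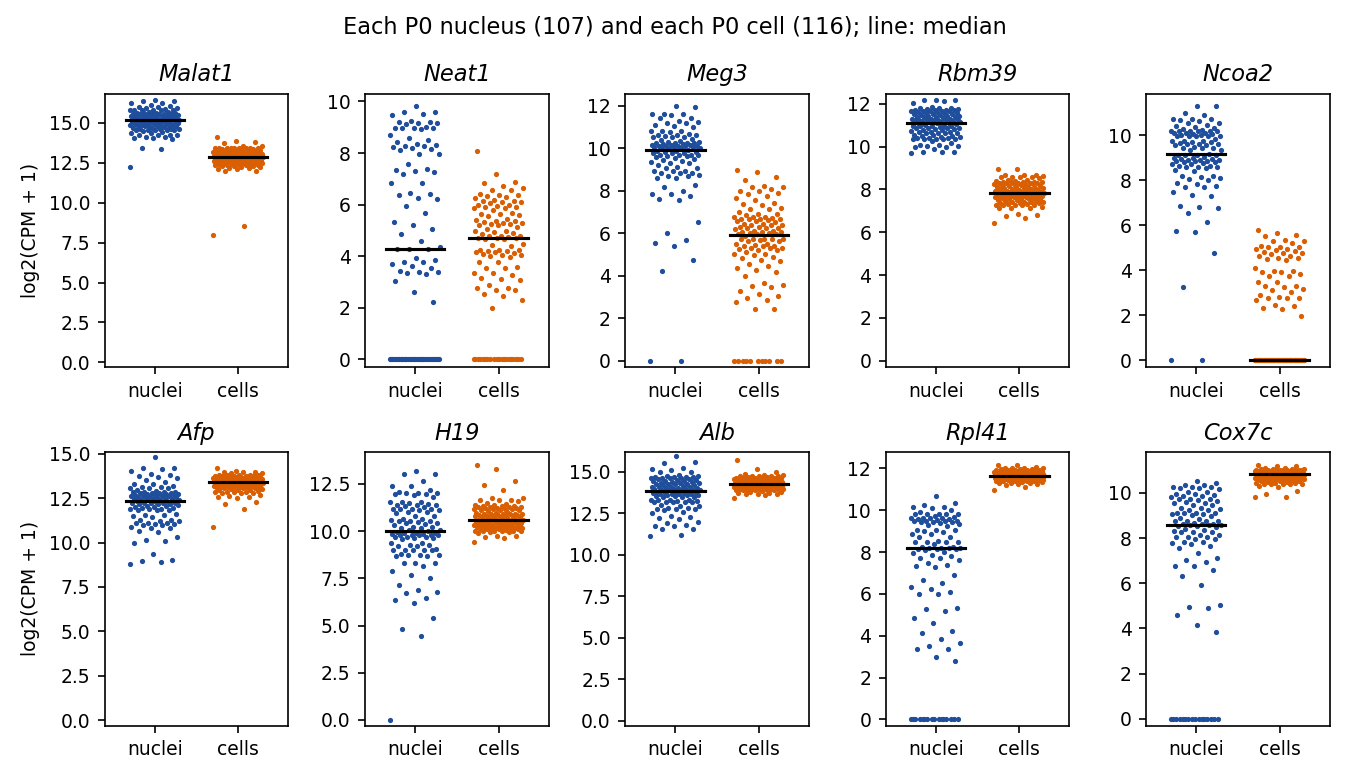
Log2(CPM + 1) of 10 genes in each P0 nucleus (blue) and each P0 cell (orange), with the median as a line. Rbm39 in nuclei and Rpl41 in cells stand apart from the other compartment without overlap, whereas Afp, H19 and Alb overlap and Neat1 has many values at 0.

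At the nuclear end of the ranking stood long genes with next to no count in cells. Klf12, a transcriptional repressor (chr14:99870632-100284679, minus strand, 407063 bases outside exons), had counts in every nucleus, from 9.46 to 3903 CPM with a median of 1229 CPM, and in 0 of the cells, which allows a share of up to 2.59% of cells. The groups do not overlap. Its pooled nuclear level of 1326 CPM was at least 10260-fold higher than the 3 counts that a pool at 0 allows. Lnx1, a ubiquitin ligase, at 294.9 CPM (82 nuclei), the predicted gene Gm20388 at 442.7 CPM (97 nuclei), Chsy3 at 167.6 CPM and Dnmbp at 125.6 CPM also had no count in cells, which makes them at least 2281-fold, 3425-fold, 1297-fold and 971.8-fold higher in nuclei. Gm20388 spans chr8:119910841-124345722, and all its exonic bases lie inside other genes. Lnx1 and Dnmbp also overlap other genes. The span of Gm20388 holds Rpl13, Cox4i1 and Map1lc3b, which were at 0 in nuclei.

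Others at this end had a few counts in cells. Adamts6, a secreted metalloprotease, stood at 484.5 CPM in nuclei (97 with a count) and 0.474 CPM in cells (6 with a count), a log2 ratio of 9.93 (interval 9.16 to 11.001), with 647.7 CPM in nuclei with spike-in and 209.7 CPM in those without. Esrrg, an orphan nuclear receptor, stood at 232.8 and 0.259 CPM (9.70, interval 8.69 to 11.26). Srsf4, a splicing factor, stood at 140.8 CPM and 0.0862 CPM, the latter from 2 counts, so that its log2 ratio of 10.35 has an interval of 8.82 to 13.72. Cacnb2, Plcl1, Gab2 and Zswim6 had log2 ratios of 10.00, 10.84, 10.78 and 9.59, each with 1 to 4 counts in cells and intervals reaching 12.05 or more. Further clear genes with at least 100 CPM in nuclei were 5730522E02Rik at 186.7 CPM (9.17), Rps6ka5 (8.85), Adcy9 (8.48), AW554918 (8.26), Rad51b (8.21) and Dennd1a (8.16). Each gene of this paragraph had a count in under 10% of the cells, and Srsf4 and Cacnb2 overlap other genes.

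A list held genes for splicing factors and other genes known for detained introns. All 31 members were ranked, and 21 were at least 4-fold higher in nuclei, against 39.9% of all ranked genes, and 1 in cells. Their median log2 ratio was 2.42, and 23 of 24 clear members lay above their intron-length bin, by a median of 1.94. Rbm39, a splicing factor, is the clearest case. Its lowest nucleus, at 840.9 CPM, lay above its highest cell, at 494.0 CPM, with medians of 2188 and 228.7 CPM. Pooled, it stood at 2247 and 241.8 CPM, a log2 ratio of 3.22 (interval 3.17 to 3.26), with 1956 CPM in nuclei with spike-in and 2739 CPM in those without. Rbm25 stood at 1197 and 126.9 CPM (3.24), and Tra2a, a splicing activator, at 244.9 and 10.9 CPM (4.49). Nktr, a cyclophilin of the speckles, stood at 1008 and 47.2 CPM (4.42), the regulatory kinase Clk1 at 481.9 and 68.001 CPM (2.82) and Son, a speckle scaffold, at 1395 and 346.2 CPM (2.01). The serine/arginine-rich factors Srsf3, Srsf5, Srsf6 and Srsf7 were closer to even, at 0.38, 0.40, 0.83 and 0.83, all 4 below the median of all ranked genes, and the helicase Ddx5 stood at 462.7 and 596.1 CPM (-0.37). Srsf2 was at 0 in nuclei and 19.3 CPM in cells, and is among the genes with overlaps.

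Chromatin regulators stood further to the nuclear side. Of 32 ranked, 26 (81.25%) were at least 4-fold higher in nuclei, against 39.9% of all ranked genes, and 1 in cells. Their median log2 ratio was 3.54. Relative to their intron-length bins the 26 clear members had a median of -0.03, and 12 of them lay above the bin. They are long genes, with a median of 91305 bases outside exons. Ncoa2, a coactivator of nuclear receptors, had 0 to 2500 CPM in nuclei (median 571.4) and 0 to 53.96 CPM in cells (median 0). Of the nuclei, 94.4% lay above every cell. Its pools stood at 708.0 and 9.48 CPM, a log2 ratio of 6.22 (interval 6.03 to 6.42), which is 2.01 above its bin. The acetyltransferase Crebbp stood at 474.5 and 25.6 CPM (4.21, equal to its bin), the cohesin loader Nipbl at 489.0 and 40.7 CPM (3.59, and -0.62 relative to its bin) and the remodeller Chd2 at 646.5 and 33.5 CPM (4.27). Kmt2d, a histone methyltransferase, was lowest among those with a count, at 52.5 and 30.5 CPM (0.79).

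Hepatocyte transcription factors spread over both sides. Of 44 ranked, 19 (43.2%) were at least 4-fold higher in nuclei, close to the 39.9% of all ranked genes, and 1 in cells, with a median of 1.67, and -0.01 relative to intron-length bins. Zbtb20, a repressor of Afp, had 116.98 to 7236 CPM in nuclei (median 1618) and 0 to 98.7 CPM in cells (median 25.4), without overlap. Pooled, it stood at 1768 and 27.8 CPM, a log2 ratio of 5.99 (interval 5.88 to 6.11), and the nuclear level was 2370 CPM with and 754.7 CPM without spike-in. Nr5a2, a nuclear receptor of bile acid synthesis, stood at 237.8 and 3.45 CPM (6.10), the thyroid hormone receptor Thrb at 504.0 and 15.3 CPM (5.04) and Nfia at 977.1 and 30.6 CPM (5.00). Ppara, the sensor of fatty acids, stood at 1568 and 171.7 CPM (3.19) and Rora at 1342 and 148.2 CPM (3.18). Hnf4a stood at 307.6 and 78.6 CPM (1.97). Relative to their bins Ppara, Rora and Hnf4a stood at -0.05, -1.03 and -1.27. On the cell side were Nr1h3, the oxysterol receptor LXR alpha, at 4.64 and 38.7 CPM (-3.04), and 3 bZIP factors of the stress and fasting response, Xbp1 (-1.53), Atf5 (-1.39) and Creb3l3 (-1.37).

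A short list held liver mRNAs for which nuclear retention has been reported. Of 5 ranked, 3 (60%) were at least 4-fold higher in nuclei, against 39.9% of all ranked genes, and 0 in cells. Their median was 2.58. Only 1 of them was a clear gene, at 1.56, which is 2.97 above its intron-length bin. The others, among them all that were at least 4-fold higher, were not clear genes, so their values are uncertain. Slc7a2, a cationic amino acid transporter whose longer transcript is the classic retained one, had 31.1 to 6640 CPM in nuclei (median 1504) and 0 to 351.6 CPM in cells (median 79.4). The ranges overlap, and the median nucleus lay above every cell. The pooled levels were 1465 and 87.3 CPM (4.07, interval 4.00 to 4.14), with 2023 CPM in nuclei with spike-in and 525.2 CPM in those without. Chka, a choline kinase, stood at 694.2 and 86.7 CPM (3.00), with 108.9 CPM in cells with less and 52.9 CPM in cells with more spike-in. Mlxipl, which encodes the carbohydrate sensor ChREBP, stood at 141.9 and 23.7 CPM (2.58), and Nlrp6, an innate immune sensor, at 96.02 and 32.5 CPM (1.56). The glucagon receptor gene Gcgr stood at 75.4 and 63.95 CPM (0.24, interval 0.10 to 0.37) and so lay below the median of all ranked genes.

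**Figure D4:**
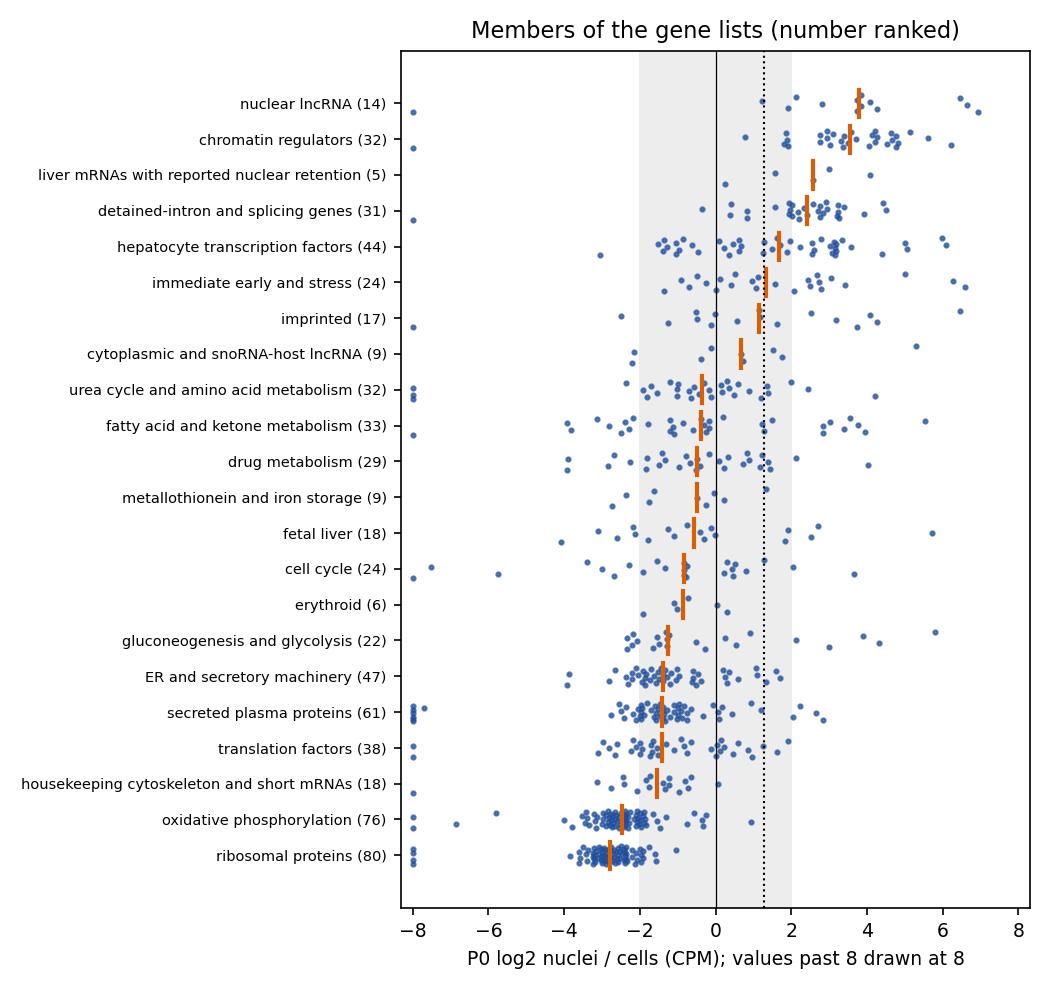
P0 log2 nuclear to cell ratio (x axis) of the ranked members of 22 gene lists, 1 point per gene, with the list median in orange, the median of all 9302 ranked genes (1.27) dotted and the range under 4-fold in grey; values past 8 in either direction are drawn at 8. Medians run from 3.79 for nuclear noncoding RNAs to -2.80 for ribosomal protein genes.

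The cell side was led by the machinery of translation and respiration. Of 80 ranked ribosomal protein genes, 71 were at least 4-fold higher in cells, against 11.8% of all ranked genes, and 0 in nuclei. Their median log2 ratio was -2.80 and their range -15.2 to -1.04. Of the 48 clear members, 0 lay above their intron-length bin, and their median was 1.54 below it. Rpl41, which encodes the smallest ribosomal protein, had 0 to 1625 CPM in nuclei (median 291.9) and 2010 to 4613 CPM in cells (median 3175), without overlap. The pooled levels were 419.1 and 3284 CPM, a log2 ratio of -2.97 (interval -3.02 to -2.92). Ribosomal protein genes have many processed copies in the genome, so some of their reads may be assigned to copies, and Rpl13 and Rpl35a were at 0 in nuclei.

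Of 76 ranked genes of oxidative phosphorylation, 58 (76.3%) were at least 4-fold higher in cells, against 11.8% of all ranked genes, and 0 in nuclei. Their median was -2.47, and 0 of 56 clear members lay above their bin. Cox7c, a subunit of cytochrome c oxidase, had 0 to 1491 CPM in nuclei (median 376.1) and 903.1 to 2421 CPM in cells (median 1795), so that the ranges overlap, with 84.1% of the nuclei below every cell. The pooled levels were 485.6 and 1786 CPM (-1.88, interval -1.92 to -1.83). Uqcrq of the bc1 complex stood at 276.7 and 1705 CPM (-2.62), Cox8a at 353.8 and 1492 CPM (-2.08) and the ATP synthase gene Atp5b at 457.3 and 1655 CPM (-1.86). Cycs, the electron carrier cytochrome c, had counts in 42 of the nuclei and in every cell, from 0 to 1051 CPM in nuclei (median 0) and from 189.3 to 2490 CPM in cells (median 1300). The ranges overlap. The pooled levels were 80.1 and 1276 CPM (-3.99, interval -4.10 to -3.89), with 1592 CPM in cells with less and 795.5 CPM in cells with more spike-in. Single clear genes far to the cell side were Mrpl36 at 4.97 and 150.1 CPM (-4.90), Mrpl55 at -3.86, Mrps16 at -3.81 and Mrpl57 at -3.79. Rpl29, a ribosomal protein gene, stood at 44.5 and 636.8 CPM (-3.84).

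Translation factors were less uniform. Of 38 ranked, 11 (28.9%) were at least 4-fold higher in cells, against 11.8% of all ranked genes, and 0 in nuclei. Their median was -1.42. Eif1, which selects the start codon, stood at 314.9 and 1480 CPM (-2.23) and the elongation factor gene Eef2 at 379.2 and 715.3 CPM (-0.92). The large scaffold genes Eif3a (1.62) and Eif4g1 (1.91) stood on the nuclear side. Genes of the endoplasmic reticulum also stood on both sides, and the part of gene size in either list was not tested. Of 47 ranked genes of folding and secretion, 10 (21.3%) were at least 4-fold higher in cells and 0 in nuclei, with a median of -1.39. The small secreted stress proteins Manf and Sdf2l1 stood at -3.92 and -3.87, the chaperones Hsp90b1 at -2.64 and Hspa5 at 365.4 and 1508 CPM (-2.05), and the coat protein Sec31a at 1.70.

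Of 61 ranked genes for plasma proteins, 15 (24.6%) were at least 4-fold higher in cells and 4 (6.56%) in nuclei, with a median of -1.41. Of all ranked genes, 11.8% and 39.9% were. Alb had 2263 to 63919 CPM in nuclei (median 14791) and 11065 to 53353 CPM in cells (median 19848). The groups overlap, with 32.7% of the nuclei below every cell, and the pools stood at 15236 and 19252 CPM, a log2 ratio of -0.34 (interval -0.35 to -0.33). Afp, its fetal relative, had 440.8 to 28365 CPM in nuclei (median 5251) and 1857 to 18880 CPM in cells (median 10676), also with overlap. The pooled levels were 6232 and 10462 CPM (-0.75, interval -0.76 to -0.73), with 7073 CPM in nuclei with spike-in and 4817 CPM in those without, and 63.8% of its exonic bases lie inside another annotated gene. Apoa1, the main protein of high-density lipoprotein, stood at 7732 and 20430 CPM (-1.40), Apoe at 5213 and 13490 CPM (-1.37) and Ttr at 3465 and 7377 CPM (-1.09). On the nuclear side were Igf1 at 129.5 and 20.4 CPM (2.66), the copper carrier Cp at 2135 and 455.1 CPM (2.23) and Apob, the scaffold of lipoprotein particles, at 612.6 and 148.4 CPM (2.05). All are longer genes than those of the small apolipoproteins Apoc1, Apoc2 and Apoc3, which stood at -2.50, -2.76 and -2.56.

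The genes at 0 in nuclei included 6 of the plasma protein list. Trf, which encodes transferrin, had a count in 0 of the nuclei, which allows a share of up to 2.8% of nuclei, and 5601 to 26061 CPM in cells (median 13880), with a count in every cell. Its pooled level of 13715 CPM was at least 41375-fold higher in cells than the 3 counts that a pool at 0 allows. Of its exonic bases, 95.9% lie inside another annotated gene. Gm20425, whose span on chr9 (103190208 to 103230307) overlaps that of Trf, itself had 1 count in the nuclei and 0 in the cells. The same reading holds for Serpina1d (4199 CPM in cells, at least 12668-fold), Apoc4 (3985 CPM, at least 12023-fold), Rpl13 (2088 CPM, at least 6298-fold), Chchd2 (2023 CPM, at least 6104-fold) and Cox4i1 (1776 CPM, at least 5358-fold). Other genes at 0 in nuclei and abundant in cells were Rps27rt, B2m, Gm13339, Rpl35a, Hpd, Gnmt, Serpina3k, Map1lc3b and Gm4604, at 581.5 to 1520 CPM. None of these 15 genes is a clear gene, and Gm4604 could not be placed in the annotation. At P9, P18 and P60 Trf was again at 0 in nuclei, and at 15955, 8974 and 5566 CPM in cells.

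Clear genes at 0 in nuclei were far less abundant. Cmc2, which helps assemble cytochrome c oxidase, stood at 35.8 CPM in cells (100 with a count) and was at least 107.9-fold higher there. Tpgs1 stood at 33.1 CPM (97 cells, at least 99.8-fold) and Trim12a at 17.3 CPM (72 cells, at least 52.3-fold), and the predicted gene 4930556M19Rik, Adam32, B3galt6, Stard3nl, Polr2d and Coprs stood at 10.2 to 12.8 CPM. Nudt14 had 1 count in nuclei and 20.2 CPM in cells, a log2 ratio of -6.93 with an interval of -12.82 to -5.03. Digestive enzymes of the pancreas lay here too, noticed after the values were seen. Pnliprp1, a lipase, stood at 32.6 CPM in cells (90 with a count), chymotrypsinogen Ctrb1 at 26.5 CPM (76 cells), colipase Clps at 22.3 CPM (82 cells), and the trypsins Try5 and Prss2 at 11.7 and 8.92 CPM, all with no count in nuclei, while the elastase Cela1 stood at 4.09 and 13.2 CPM. All but Cela1, at 14.9 CPM in cells with less and 10.5 CPM in cells with more spike-in, were far apart between the sets. Ctrb1 stood at 43.95 CPM in cells with less spike-in and 0 in cells with more, Pnliprp1 at 46.7 and 11.2 CPM, Clps at 35.1 and 2.93 CPM, Try5 at 19.4 and 0 CPM and Prss2 at 14.8 and 0 CPM, and single cells reached 1340 CPM of Ctrb1. The part of those sets in this result was not tested.

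Metabolic genes lay between the extremes, to be read against 39.9% of all ranked genes at least 4-fold higher in nuclei and 11.8% in cells, and within a pathway the ratio differed from enzyme to enzyme. Of 33 ranked genes of fatty acid and ketone metabolism, 8 (24.2%) were at least 4-fold higher in nuclei and 9 (27.3%) in cells, with a median of -0.39. The nuclear side held genes of fatty acid synthesis, Acaca (387.9 and 8.40 CPM, 5.53), Fasn (78.1 and 5.77 CPM, 3.75), Scd1 (3.96), Elovl6 (3.55) and Acacb (3.40). Among the genes of fatty acid breakdown, Cpt1a, the entry step to mitochondria, stood at 1.23 and Etfb, which passes on the electrons, at -2.51. Fabp1, the fatty acid binding protein of the liver, had 0 to 3809 CPM in nuclei (median 612.7) and 1530 to 17687 CPM in cells (median 7360). The ranges overlap. Pooled, it stood at 847.8 and 7440 CPM (-3.13, interval -3.17 to -3.10), with 9713 CPM in cells with less and 3989 CPM in cells with more spike-in. Acot1, an acyl-CoA thioesterase, stood at 26.2 and 445.6 CPM (-4.09), with 610.3 and 195.5 CPM in the same 2 sets of cells.

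Of 32 ranked genes of the urea cycle and amino acid metabolism, 2 (6.25%) were at least 4-fold higher in nuclei and 4 (12.5%) in cells, with a median of -0.37. Cps1, the entry enzyme of the urea cycle, stood at 4580 and 1792 CPM (1.35), with 5581 CPM in nuclei with spike-in and 2894 CPM in those without, and Arg1, its last enzyme, at 1365 and 3139 CPM (-1.20). Mat1a, which makes the methyl donor of the liver, stood at 5257 and 4296 CPM (0.29) and Bhmt, which remethylates homocysteine, at 1458 and 5102 CPM (-1.81), with 1051 CPM in nuclei with spike-in and 2143 CPM in those without. Of 22 ranked genes of gluconeogenesis and glycolysis, 5 (22.7%) were at least 4-fold higher in each direction, with a median of -1.26. Ppargc1a, a coactivator of the fasting response, stood at 786.4 and 39.8 CPM (4.30), Pck1 at 1263 and 1530 CPM (-0.28) and Fbp1 at 916.3 and 2873 CPM (-1.65). Of 29 ranked genes of drug metabolism, 2 (6.90%) were at least 4-fold higher in nuclei and 5 (17.2%) in cells, with a median of -0.49. Cyp3a11 stood at 294.4 and 1903 CPM (-2.69), Cyp2e1 at 167.2 and 802.1 CPM (-2.26) and Por, which supplies their electrons, at 1317 and 1043 CPM (0.34). Members of the Cyp2c, Cyp2d, Cyp3a and Cyp4a families are near copies of each other, so the member counted is uncertain.

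Cyp4a10, a fatty acid hydroxylase, stood far to the cell side at P0. It had 0 to 932.9 CPM in nuclei (median 0, counts in 34 of the nuclei) and 0 to 3927 CPM in cells (median 1113, counts in 99.1% of the cells). The ranges overlap. Its pools stood at 76.2 and 1169 CPM, a log2 ratio of -3.94 (interval -4.05 to -3.83), with 1174 CPM in cells with less and 1161 CPM in cells with more spike-in. At P9 its log2 ratio was 0.53 (288.5 and 199.4 CPM), at P18 -0.39 and at P60 -1.94. Its neighbour Cyp4a14 went from -1.85 at P0 to 2.04 at P9, 1.36 at P18 and -2.94 at P60. Sult2a1, a bile acid sulfotransferase, stood at 5.19 and 231.5 CPM at P0 (-5.46, interval -5.93 to -5.07), with 327.8 CPM in cells with less and 85.3 CPM in cells with more spike-in, and at 3.07 at P60, where both pools were at 8.17 CPM or less. In the interaction fit of P0 against the later ages, the log2 difference was -3.52 for Cyp4a10 and -5.41 for Sult2a1, and neither was called. Both genes were chosen after their values were seen, and the fit uses those same pools. It therefore cannot serve as a test for them.

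Fetal and imprinted genes fell on both sides. Of 18 ranked fetal liver genes, 3 (16.7%) were at least 4-fold higher in nuclei and 5 (27.8%) in cells, with a median of -0.58. Of all ranked genes, 39.9% and 11.8% were. Lin28b, a blocker of let-7 maturation, stood at 111.8 and 2.11 CPM (5.71) and Igf2bp3, which binds Igf2 mRNA, at 327.5 and 50.2 CPM (2.70). Tff3, a small secreted peptide, stood at 402.7 and 2470 CPM (-2.62) and Bex1 at 53.4 and 460.3 CPM (-3.11). Of 17 ranked imprinted genes, 6 (35.3%) were at least 4-fold higher in nuclei and 2 (11.8%) in cells. These shares lie near the 39.9% and 11.8% of all ranked genes, as does the median of 1.15 (-0.09 under TMM) near 1.27. Grb10, which restrains growth factor signals, stood at 1704 and 187.9 CPM (3.18, and -0.06 relative to its intron-length bin) and Peg3, a zinc finger gene, at 1268 and 219.6 CPM (2.53). Igf2, the fetal growth factor, stood at 331.1 and 790.9 CPM (-1.26), and Dlk1, which shares its locus with Meg3, at 19.8 and 19.9 CPM (0.00, interval -0.26 to 0.25).

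Immediate early and stress genes differed more between the spike-in sets than most lists. Of 24 ranked, 11 (45.8%) were at least 4-fold higher in nuclei and 0 in cells, with a median of 1.34, close to the 39.9% and 1.27 of all ranked genes, and 16 of 18 clear members lay above their intron-length bin, by a median of 2.49. Their summed level was 3397 CPM in nuclei with spike-in and 726.3 CPM in those without, and 646.7 and 983.4 CPM in cells with more and less. Fos, the first of these genes to respond to stimuli, had 0 to 3262 CPM in nuclei (counts in 49 of the nuclei) and 0 to 685.3 CPM in cells (counts in 39 of the cells). Its pools stood at 271.7 and 39.2 CPM (2.79), but nuclei with spike-in stood at 432.3 CPM and those without at 1.19 CPM, and cells with less at 64.7 CPM and those with more at 0.434 CPM. Against nuclei without spike-in alone its log2 ratio was -4.88. Jun stood at 281.6 and 16.3 CPM in the 2 sets of nuclei and Btg2, an antiproliferative gene, at 625.2 and 47.4 CPM. Btg1 stood at 277.9 and 267.8 CPM in the sets of nuclei and at 63.9 and 135.99 CPM in cells with less and more spike-in (1.57 over the pools). Atf4, a factor of the amino acid and stress response, stood at 225.2 and 180.6 CPM in the sets of nuclei and at 37.6 and 76.2 CPM in those of cells (1.98). Both have few or no bases outside their annotated exons. Scd2, a desaturase, stood at 209.04 CPM in nuclei with spike-in and 0 in those without, with 0.474 CPM in cells. The part of the sets in these values was not tested.

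Genes with no base outside the exons of all their annotated transcripts were read apart. A base that is exonic in 1 transcript and intronic in another counts as exonic here. Genes with spliced transcripts can therefore be among them, and intron reads are not excluded. Processed pseudogenes, among them copies of ribosomal protein genes, are also part of these genes. They made 1.81% of the clear ranked genes and had a median log2 ratio of -1.42. Of them, 16 (14.2%) were at least 4-fold higher in nuclei and 50 (44.2%) in cells, against 41.3% and 8.72% of all clear genes. Neat1 (1.93) and Atf4 (1.98) lay just under 4-fold, and those past it included the chemokine Cxcl1 (15.7 and 1.12 CPM, 3.79) and several predicted genes, of which Gm21897 stood at 570.1 and 24.05 CPM (4.57). The linker histone gene Hist1h1c stood at 67.3 and 387.6 CPM (-2.53). By gene type, 44 clear long intergenic noncoding RNAs had a median of 2.71, with 26 at least 4-fold higher in nuclei and 4 in cells, and lay 2.17 above their intron-length bins. The 6098 protein-coding genes had a median of 1.36.

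The ratio was tested where the ranking had not used the data, in the nuclei and cells of P9, P18 and P60. These 6 pools were fitted with edgeR's quasi-likelihood test with age as a block, and of 13885 genes 3433 (24.7%) were higher and 3971 (28.6%) lower in nuclei at a Benjamini-Hochberg adjusted p of 0.05. Of 3646 tested genes that were at least 4-fold higher in nuclei at P0, 2503 (68.7%) were called higher and 28 lower at the later ages. Of 1099 genes at least 4-fold higher in cells at P0, 1054 (95.9%) were called lower in nuclei and 1 higher. Of 4474 genes within 4-fold at P0, 7.55% were called higher and 2036 (45.5%) lower. The P0 classes rest on plain totals and the later test on TMM, so their zero points differ and the shares above depend on it. With plain totals the later test called 5231 genes higher and 2543 lower. The same holds for the lists below. The later ages share no nucleus or cell with P0, but they share the annotation and each kind's counting, overlaps included.

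The counts by list are to be read against 24.7% of all tested genes called higher and 28.6% called lower. Lower in nuclei at the later ages were 81 of 81 ribosomal protein genes, 76 of 76 genes of oxidative phosphorylation and 57 of 62 plasma protein genes. So were 41 of 47 genes of the endoplasmic reticulum and 35 of 38 translation factors, and 0 of any of these lists were higher. Of 31 splicing and detained-intron genes 24 were higher and 2 lower, of 32 chromatin regulators 28 and 1, of 48 hepatocyte transcription factors 23 and 12, and of 14 nuclear noncoding RNAs 8 and 1. Of 6 mRNAs with reported retention 5 were higher and 0 lower. Of 33 genes of the urea cycle and amino acid metabolism 2 were higher and 20 lower, of 37 of fatty acid metabolism 3 and 21, of 23 of gluconeogenesis and glycolysis 4 and 14, and of 33 of drug metabolism 1 and 22. Of 16 fetal liver genes 2 were higher and 9 lower, of 20 imprinted genes 3 and 7, and of 32 immediate early and stress genes 0 and 8. Of 11 cytoplasmic and snoRNA-host noncoding RNAs 1 was higher and 4 lower. The counts called lower among these RNAs, the imprinted genes and the immediate early and stress genes lie near the share of all tested genes.

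Single genes at the later ages were as follows, all by edgeR's quasi-likelihood test with Benjamini-Hochberg adjustment over 3 pools of each kind and TMM-scaled. Klf12 stood at 1495, 1106 and 887.7 CPM in nuclei and at most 0.584 CPM in cells at P9, P18 and P60, and was higher in nuclei (log2 fold change 10.26 ± 0.47 SE, edgeR adjusted p = 3.98e-05). Adamts6 was higher too (8.57 ± 0.63, edgeR adjusted p = 4.79e-05), as were Airn (4.84 ± 0.40, 6.42e-05), Ncoa2 (4.01 ± 0.29, 4.52e-05) and Zbtb20 (3.47 ± 0.39, 0.000214). Neat1 was higher at the later ages by 2.79 ± 0.48 (edgeR adjusted p = 0.00185), with P0 at 133.4 CPM in nuclei and P9, P18 and P60 at 882.5, 2057 and 4069 CPM. Slc7a2 was higher by 1.73 ± 0.35 (edgeR adjusted p = 0.00453) and Rbm39 by 1.20 ± 0.30 (0.0115). Malat1 stood at 18064 and 4882 CPM at P9, 18920 and 5791 CPM at P18 and 25951 and 4793 CPM at P60, and was higher by 0.97 ± 0.27 (edgeR adjusted p = 0.0173, and 0.125 without P60). Meg3 did not pass (1.20 ± 1.02, edgeR adjusted p = 0.352), with log2 ratios of 5.13 at P9, -0.37 at P18 and 1.73 at P60, and at P18 both pools were at 1.42 CPM or less.

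On the cell side, Cycs was lower in nuclei by 4.86 ± 0.31 on the log2 scale (fold change -4.86, edgeR adjusted p = 3.98e-05), and so were Fabp1 (-4.32 ± 0.30, edgeR adjusted p = 4.19e-05), Rpl41 (-4.20 ± 0.34, 6.03e-05), Cox7c (-3.96 ± 0.27, 4.12e-05) and Alb (-2.66 ± 0.24, 8.83e-05). The Alb ratio was -0.34 at P0 and -1.57, -1.57 and -1.70 at P9, P18 and P60, before TMM. Afp was lower in nuclei by -3.12 ± 0.85 (edgeR adjusted p = 0.0166, and 0.0782 without P18), with log2 ratios of -0.75 at P0, -3.18 at P9, -3.19 at P18 and 0.72 at P60, where both pools were at 11.3 CPM or less. H19 was lower by -1.86 ± 0.52 (edgeR adjusted p = 0.0187, and 0.116 without P18), with ratios of -0.11, -1.16, -1.74 and 0.91 from P0 to P60, the last at 2.30 CPM or less in both pools. Cyp4a10 was lower by -1.64 ± 0.48 (edgeR adjusted p = 0.0223, and 0.0769 without P18).

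**Figure D5:**
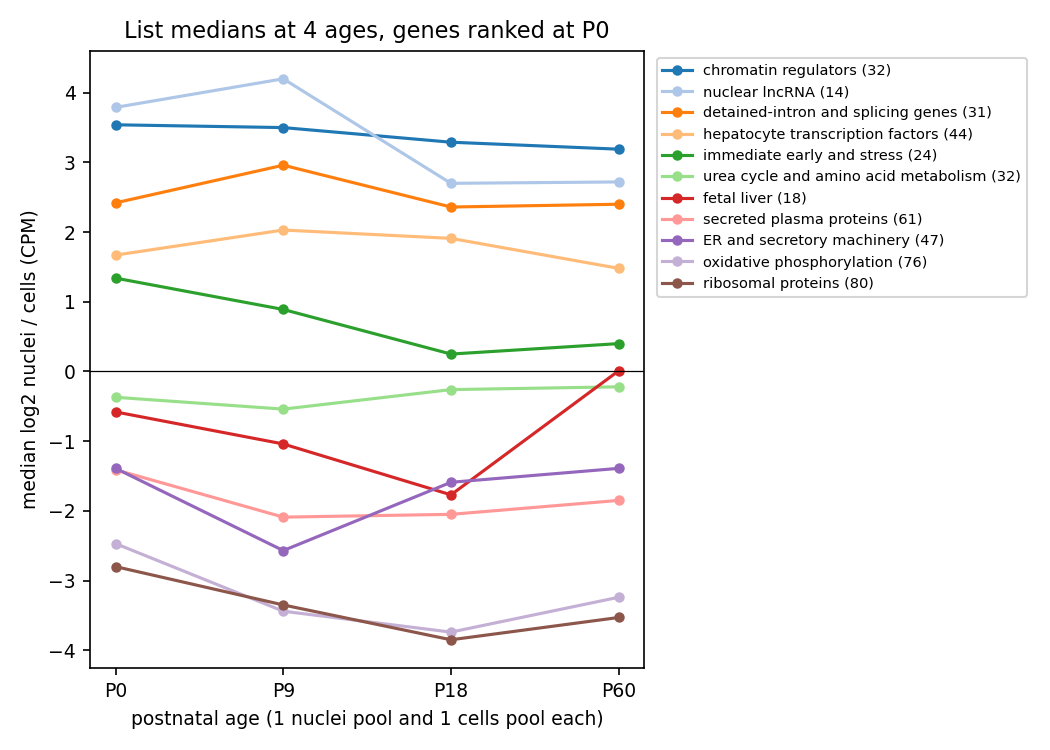
Median log2 nuclear to cell ratio (y axis) of 11 gene lists at P0, P9, P18 and P60 (x axis), 1 nuclei pool and 1 cells pool at each age, for the genes ranked at P0. Ribosomal protein and respiratory genes stay lowest, from -2.80 and -2.47 at P0 to -3.53 and -3.24 at P60, and chromatin regulators stay between 3.19 and 3.54.

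Whether the P0 ratio differs from that of the later ages was tested as an interaction over 8 pools. EdgeR's quasi-likelihood test called 0 of 15942 genes higher (0%) and 0 lower (0%) at an adjusted p of 0.05, with 1260 genes at an unadjusted p under 0.05, while DESeq2 called 0.797% higher and 1.15% lower. With 1 pool of each kind at P0 and 2 residual degrees of freedom, a count of 0 does not show that the ratios were alike. It rested on single ages: without P9 edgeR called 1.57% higher and 1.66% lower, without P60 0.416% and 0.251%, and without P18 0.0258% and 0%. List medians moved with age to different degrees. Chromatin regulators stood at 3.54, 3.50, 3.29 and 3.19 from P0 to P60 and ribosomal protein genes at -2.80, -3.35, -3.85 and -3.53. Genes of oxidative phosphorylation stood at -2.47, -3.44, -3.74 and -3.24, fetal liver genes at -0.58, -1.04, -1.77 and 0.01, and cell cycle genes at -0.83, -4.27, -1.59 and -0.78. The cytoplasmic and snoRNA-host noncoding RNAs were on both sides, at 0.66, -0.78, 1.57 and 1.49, as were the metallothionein and iron genes, at -0.50, 0.67, -0.04 and -1.71. The immediate early and stress genes stood at 1.34 at P0 and at 0.89, 0.25 and 0.40 later.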

How the data were processed

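Single nuclei and single cells of P0 liver were compared, with P9, P18 and P60 as further ages. The authors deposited 1 table of raw counts for nuclei and 1 for cells, per the file headers, in whole numbers and keyed by symbol. Per the submitters' processing notes the tools include featureCounts (1.5.3, 2.0.0), HTSeq 0.6.0, HISAT2 2.1.0, TopHat2 2.1.0, TopHat, Bowtie2, UMI-tools 0.5.0, Trimmomatic 0.39 and SAMtools 1.3.1, with the builds mm10 and GRCm38. The role of each is not stated. The sources used here do not say whether reads or molecules were counted, whether strand was used, or what was done with overlapping and near-identical genes, so intervals and limits cover counting error only.

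Each table holds 40824 genes and 92 ERCC entries, which were left out of totals. Among the symbols for nuclei, 25 were written as dates and could not be paired, which left 40799 genes and out of the analysis 0.236% of the nuclear and 0.211% of the cell counts, and CPM are over the paired genes. Of the 174 unsorted P60 cells 58 were used. In all, 1771 columns of the tables were not used. No doublet caller was run, since each sample is 1 sorted or picked cell or nucleus, and no 2 P0 libraries held identical counts. No label names an animal or a batch, so pools were the replicates and p-values measure only the spread between pools, which may be technical.

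At P0 the log2 ratio of (count + 0.5) over the pool's total was taken for genes with a mean CPM of at least 5, without a test. The later ages were tested with edgeR 4.0.16 in R 4.3.3 (glmQLFit and glmQLFTest, two-sided, TMM, filterByExpr, with a term for age, which leaves 2 residual degrees of freedom) and the Benjamini-Hochberg threshold of 0.05. DESeq2 1.42.0 was an alternative. The code was tested on simulated data. Gene positions, overlaps and transcripts came from GENCODE M21 on GRCm38. Intron bases are those of the gene outside all annotated exons.

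The genes named are the 15 furthest on each side with a count in at least 25% of the nuclei or of the cells, the 10 furthest with at least 100 CPM, Malat1, Afp and H19, and examples from the lists. The same rule was then repeated on clear genes. Examples beyond the most abundant of a list, and the pancreatic enzymes, were chosen after their values were seen. The members and the lists were chosen with earlier results of these data known. The spike-in sets, the restriction to clear genes, the removal of genes at 0 and the intron-length bins were added after seeing the data. The other alternatives were 4N nuclei, other totals and normalizations, higher floors, P60 cells sorted as 2N, no filter, no block, P0 added, and each age left out. Some genes are not reported here.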

Additional observations from a re-analysis of the deposited data

How the results depend on the processing

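No paired analysis was possible because the numbers in the labels name single nuclei and cells and do not pair the pools. The P0 counts of genes at least 4-fold higher in nuclei and in cells, 3711 and 1100, became 1971 and 2396 with TMM-adjusted totals. The count on the cell side was 1833 with 4N nuclei, 719 with a floor of 20 CPM and 543 among clear genes, where fewer genes were ranked. At the later ages, 3433 higher and 3971 lower became 5231 and 2543 with plain totals, and 2272 and 2147 among clear genes. Leaving out 1 age gave 2530 to 3444 higher and 2951 to 3968 lower. For the difference between P0 and the later ages, 0% and 0% of genes became 0.797% and 1.15% with DESeq2, 0.00917% and 0% with no filter, and 0.0258% to 1.57% and 0% to 1.66% without 1 age. The cause was not tested.

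Some P0 log2 ratios turned direction. With nuclei without spike-in they were -0.68 for Btg2, -4.88 for Fos, -1.74 for Scd2, -2.17 for Sox9 (-1.12 with 4N nuclei) and -0.18 for Stab2. With cells with more spike-in they were 0.026 for Ctrb1 and 0.026 for Try5, both then at 0 in either pool, and with cells with less 3.44 for Mpo. Ratios under 4-fold that turned with a set included those of H19 (0.36 and 0.26), Jun (-2.36), Ddx5 (0.28), Gas5 (0.17) and Dlk1 (1.22 and 0.67). Larger turns were those of Cebpa, from 0.34 to -6.845 with nuclei without spike-in, and Hbb-bs, from 0.03 to -6.34 with nuclei with spike-in. With cells with more spike-in, Hbb-bt went from -0.72 to 3.83 and Hba-a2 from -1.09 to 2.97. Relative to intron-length bins they were 0.0 for Crebbp, -0.058 for Grb10, -0.62 for Nipbl, -0.048 for Ppara, -1.03 for Rora and -0.03 for the median of the chromatin regulators. At the later ages Meg3 was at -0.31 without P9 and at 2.48 without P18, where it passed. Of the other calls for named genes at the later ages, those lost under an alternative were of Afp, H19, Cyp4a10, Malat1 and Slc7a2, 16 losses among 18 genes in all, none of them with a change of direction. Without a term for age, Slc7a2 had an edgeR adjusted p of 0.13, and plain totals ended the calls of Afp, H19 and Cyp4a10.

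The P0 values rest on 1 pool of each kind, and no animal can be told from another. A nucleus had fewer counts than a cell, so absence of a gene in nuclei is limited to 0.331 CPM and in cells to 0.129 CPM, which is 3 counts in the pool. Nuclei and cells were counted in separate tables, and for the genes at 0 in nuclei a difference in RNA cannot be told apart from a difference in counting.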

Other observations

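Genes of the cell cycle, iron handling and the Y chromosome were also measured. Of 24 ranked cell cycle genes, 2 were at least 4-fold higher in P0 nuclei (39.9% of all ranked genes) and 7 in cells (11.8%), with a median log2 ratio of -0.83. The long gene Mki67, a coat of mitotic chromosomes, stood at 22.98 and 1.81 CPM (3.65), and the replicative helicase genes Mcm3 and Mcm4 at -2.69 and -3.39. Of 46 tested at the later ages, 0 were higher and 21 lower in nuclei by edgeR's quasi-likelihood test, against 24.7% and 28.6% of all tested genes. Of 9 ranked metallothionein and iron genes, 2 were at least 4-fold higher in cells and 0 in nuclei. Mt1, which binds zinc and copper, stood at 2689 and 3224 CPM (-0.26), and the ferritin gene Fth1 at 800.8 and 5313 CPM (-2.73). Of the Y-linked genes, Uty, a histone demethylase relative, stood at 338.4 and 12.4 CPM (4.77), Kdm5d at 57.01 and 3.15 CPM (4.17), Eif2s3y at 222.3 and 46.5 CPM (2.26) and Ddx3y at 234.2 and 55.1 CPM (2.09).

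Of the globin genes, Hbb-bs stood near even between the pools, at 269.8 and 264.2 CPM (0.03), but at -6.34 with nuclei with spike-in alone. Hbb-bt (-0.72), Hba-a1 at 119.8 and 243.4 CPM (-1.02) and Hba-a2 (-1.09) were lower in nuclei. With cells with more spike-in alone, Hbb-bt, Hba-a1 and Hba-a2 turned to 3.83, 2.605 and 2.97. Hba-a1 stood at 9.16 CPM in nuclei with spike-in and 306.04 CPM in those without. Mpo, a granule enzyme of myeloid cells, stood at 69.9 CPM in cells with more spike-in and 0.0715 CPM in cells with less. Reln stood at 329.3 CPM in nuclei with spike-in and 4.15 CPM in those without.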
